A study of Danio rerio with 6 samples.

Results

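Of 25129 zebrafish gene identifiers counted in cells sorted as macrophages from larvae with injured muscle, 21 were high at 1 day post injury (dpi) and low at the later times. Transcripts were summed per library over wells with at least 500 gene transcripts and scaled to counts per 1000000 of the library total (CPM). A gene was a member when the lower of its 1 dpi levels was at least 30 CPM and at least 3 times its highest level at 2 and 3 dpi. The values at 1, 2 and 3 dpi therefore chose the genes and are given as a description, while the uninjured library played no part in the choice. Among the 3091 genes that reached 30 CPM in both libraries of 1 dpi, the members were 0.679%, whereas 39.7% were above every later library at all. Of the 21, 18 carry a gene symbol in the table used, some of them in capitals as for the human counterpart.

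Every larva was of the TL strain, carried Tg(mpeg1:mCherry) and was kept in 1-phenyl-2-thiourea, which stops pigment from forming. The transgene places a red fluorescent protein under regulatory sequence of mpeg1, a gene of macrophages. A needle puncture of the trunk muscle at 4 days post fertilisation (dpf) was followed to 1 dpi (5 dpf, 2 libraries), 2 dpi (6 dpf, 1 library) and 3 dpi (7 dpf, 2 libraries). The injured samples were cells of the dissected injury region, and the uninjured sample (4 dpf, 1 library) came from whole larvae, so injury, tissue and age cannot be told apart there. Live red cells were sorted singly into 384-well plates, 1 plate per library, and sequenced by SORT-seq, which counts molecularly tagged transcripts at their 3' ends. Nothing in the labels says that libraries of 1 time came from separate groups of larvae. Part of the spread behind a p-value may therefore be technical. For the main comparison with the uninjured library, that spread came only from the pairs at 1 dpi and at 3 dpi. The uninjured and 2 dpi groups, of 1 library each, added none, so the spread of the pairs had to stand in for theirs. With 2 residual degrees of freedom per gene, the edgeR test also drew on the spread of other genes, and small p-values rest partly on that. The comparison of wells within the 5 injured libraries used how far their differences varied across those libraries.

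Kept wells numbered 341 in the uninjured library, 299 and 209 in the libraries of 1 dpi, 364 in that of 2 dpi, and 276 and 331 in those of 3 dpi, with 1363461 to 8345158 transcripts per library. In the uninjured library 18 wells of over 50000 transcripts held 70.1% of all transcripts, and 46 skeletal muscle marker identifiers summed to 574 to 754 CPM in the 5 injured libraries, against 79186 CPM in the uninjured one. The sort was labelled as macrophages. Of 27 identifiers on the macrophage marker list all were detected in the series, and they summed to 3906 CPM in the uninjured library, 12152 and 12062 CPM at 1 dpi, 9479 CPM at 2 dpi, and 6686 and 6571 CPM at 3 dpi. Granulocyte markers (11 identifiers) summed to 647 CPM in the uninjured library, 4194 and 3088 CPM at 1 dpi, 5533 CPM at 2 dpi, and 5793 and 7557 CPM at 3 dpi. Keratinocyte markers (23 identifiers) summed to 13596 CPM in the uninjured library, 6732 and 4028 CPM at 1 dpi, 8640 CPM at 2 dpi, and 18041 and 5183 CPM at 3 dpi. Metaphocyte markers (7 identifiers) summed to 1008 CPM in the uninjured library, 530.1 and 98.9 CPM at 1 dpi, 135 CPM at 2 dpi, and 1274 and 1955 CPM at 3 dpi, and fibroblast markers (30 identifiers) were at 56.1 to 1169 CPM in the injured libraries, against 5739 CPM in the uninjured one. Keratinocytes are cells of the skin, and metaphocytes are macrophage-like cells of the skin that also carry mpeg1. The part of these markers in the levels below was not tested, apart from the values within gated wells. In sums over a library, fewer cells of a type and less RNA per cell cannot be told apart.

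Macrophages that enter wounded muscle take up debris and secrete signals and enzymes. Secreted and membrane proteins enter the endoplasmic reticulum, where channels and insertases thread them into the membrane, sugars are attached and chaperones fold them. Mitochondria supply ATP through the respiratory chain, the spliceosome removes introns from transcripts, and the proteasome degrades marked proteins. The 21 members were grouped by such roles after their values had been seen: 5 act in the endoplasmic reticulum and secretion, 3 in mitochondria, 3 in splicing, 2 in protein breakdown or translation, and 2 in DNA replication and chromatin. For the other 6 no role is given, 3 of them because the table names them only by identifier.

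The 5 members of the endoplasmic reticulum and secretion act at successive steps of protein entry, modification, folding and export. KRTCAP2 (ENSDARG00000070386), a subunit of the oligosaccharyltransferase that attaches sugars to entering proteins, measured 49.7 CPM in the uninjured library, 185 and 187 CPM at 1 dpi, 47.6 CPM at 2 dpi, and 58.6 and 41.8 CPM at 3 dpi. FKBP2 (ENSDARG00000044540), a prolyl isomerase of the lumen, stood at 23.4 CPM in the uninjured library, 126 and 131 CPM at 1 dpi, 37.1 CPM at 2 dpi, and 24.7 and 26.0 CPM at 3 dpi. Both were at least 3 times higher at 1 dpi than in any other library, the uninjured one included. SDF2L1 (ENSDARG00000035631), which works with the chaperone BiP, had the lowest levels of the group, with 23.3 CPM in the uninjured library, 38.9 and 53.8 CPM at 1 dpi, 8.28 CPM at 2 dpi, and 9.89 and 3.43 CPM at 3 dpi. The uninjured level of SDF2L1 was thus above all later levels and below both 1 dpi levels. WDR83OS (ENSDARG00000025554), also called Asterix, helps to insert multi-pass membrane proteins, and BCAP31 (ENSDARG00000044972) sorts membrane proteins leaving the endoplasmic reticulum. WDR83OS measured 47.6 CPM in the uninjured library, 85.1 and 92.6 CPM at 1 dpi, 26.2 CPM at 2 dpi, and 18.4 and 26.0 CPM at 3 dpi. BCAP31 measured 67.4 CPM in the uninjured library, 108 and 106 CPM at 1 dpi, 34.9 CPM at 2 dpi, and 29.7 and 32.9 CPM at 3 dpi. For WDR83OS and BCAP31, too, the uninjured level lay between the 1 dpi levels and the later ones.

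Among the 3 mitochondrial members, atp5mc1 (ENSDARG00000056008) encodes the c subunit that forms the rotating ring of ATP synthase. Its level was 724 CPM in the uninjured library, 647 and 645 CPM at 1 dpi, 204 CPM at 2 dpi, and 110.2 and 76.1 CPM at 3 dpi. The c subunit is encoded by several closely similar genes, and how the counting split reads between them is not given, so the level of this one is uncertain. The gene cox6b1 (ENSDARG00000045230), for a subunit of respiratory complex IV, had 177 CPM in the uninjured library, 71.1 and 75.2 CPM at 1 dpi, 21.5 CPM at 2 dpi, and 12.7 and 6.17 CPM at 3 dpi. These genes were the only members with an uninjured level above both 1 dpi levels. The description "high only at 1 dpi" was set by the injured libraries alone for every member. Over the 21 the lower 1 dpi level was 0.402 to 21.6 times the uninjured level. The median was 2.15, under the 3 times asked against the later libraries. PHB2 (ENSDARG00000017728), a prohibitin that scaffolds the inner mitochondrial membrane, measured 33.8 CPM in the uninjured library, 51.3 and 44.5 CPM at 1 dpi, 11.2 CPM at 2 dpi, and 14.1 and 3.43 CPM at 3 dpi.

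Each of the 3 splicing members belongs to a small nuclear ribonucleoprotein. SF3B5 (ENSDARG00000016855) and PHF5A (ENSDARG00000045155) are parts of SF3b, the complex of the U2 particle that holds the branch site, and LSM6 (ENSDARG00000036995) is part of the ring on U6 RNA. SF3B5 had the largest ratio of all 21, 3.98, with 21.3 CPM in the uninjured library, 37.4 and 34.7 CPM at 1 dpi, 8.72 CPM at 2 dpi, and 7.77 and 6.17 CPM at 3 dpi. LSM6 stood at 30.8 CPM in the uninjured library, 66.0 and 76.4 CPM at 1 dpi, 20.8 CPM at 2 dpi, and 12.005 and 13.7 CPM at 3 dpi. PHF5A stood at 14.9 CPM in the uninjured library, 41.1 and 47.4 CPM at 1 dpi, 13.6 CPM at 2 dpi, and 8.47 and 6.17 CPM at 3 dpi. The order was the same for the 3 genes, with 1 dpi highest, the uninjured library next and 2 and 3 dpi below it. It is not particular to splicing, as 14 of the 21 members had that order. The choice of genes fixes the place of 1 dpi above 2 and 3 dpi. No list of other splicing genes was examined.

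PSMD12 (ENSDARG00000052377), a subunit of the lid of the proteasome, had 50.5 CPM in the uninjured library, 96.1 and 98.4 CPM at 1 dpi, 31.1 CPM at 2 dpi, and 16.2 and 26.1 CPM at 3 dpi. The gene tma7 (ENSDARG00000071670), whose yeast counterpart associates with the translation machinery, reached 86.8 CPM in the uninjured library, 234 and 251 CPM at 1 dpi, 64.7 CPM at 2 dpi, and 73.4 and 61.7 CPM at 3 dpi. In DNA replication and chromatin, h2ax (ENSDARG00000029406) encodes a histone H2A variant that is phosphorylated at DNA breaks, and RPA3 (ENSDARG00000002613) the smallest subunit of the protein that coats single-stranded DNA. The level of h2ax was 16.6 CPM in the uninjured library, 38.9 and 53.2 CPM at 1 dpi, 11.4 CPM at 2 dpi, and 2.12 and 6.85 CPM at 3 dpi. RPA3 measured 11.5 CPM in the uninjured library, 33.0 and 34.1 CPM at 1 dpi, 8.28 CPM at 2 dpi, and 0.706 and 10.97 CPM at 3 dpi. RPA3 was the member nearest the threshold, at a ratio of 3.009, and its libraries of 3 dpi stood apart, the lower of them resting on 1 well with the transcript.

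The most abundant members have no role given here. The gene si:dkey-6n3.3 (ENSDARG00000095820) had 81.1 CPM in the uninjured library, 1751 and 1819.8 CPM at 1 dpi, 509.8 CPM at 2 dpi, and 165 and 177 CPM at 3 dpi. The gene si:dkey-119g10.4 (ENSDARG00000095801) had 56.2 CPM in the uninjured library, 1381 and 1166 CPM at 1 dpi, 368 CPM at 2 dpi, and 220.1 and 143 CPM at 3 dpi. At lower levels, zgc:64065 (ENSDARG00000071139) had 11.5 CPM in the uninjured library, 140.2 and 117 CPM at 1 dpi, 33.3 CPM at 2 dpi, and 24.7 and 13.7 CPM at 3 dpi. Over all kept wells these genes shared an order that most members did not have. The uninjured library was lowest, 1 dpi highest and 2 dpi above both libraries of 3 dpi. The uninjured place in that order changed without the largest uninjured wells, as given below. Of the members without a symbol, ENSDARG00000020103 measured 234 CPM in the uninjured library, 448 and 671 CPM at 1 dpi, 136 CPM at 2 dpi, and 86.9 and 75.4 CPM at 3 dpi. ENSDARG00000070217 measured 69.4 CPM in the uninjured library, 110.0 and 132 CPM at 1 dpi, 30.9 CPM at 2 dpi, and 34.6 and 30.2 CPM at 3 dpi. ENSDARG00000078085, named here although the naming rule stops at 2 such identifiers, measured 79.0 CPM in the uninjured library, 194 and 295 CPM at 1 dpi, 57.7 CPM at 2 dpi, and 43.8 and 62.4 CPM at 3 dpi. All 3 had their uninjured level between the 1 dpi levels and the later ones.

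**Figure D1:**
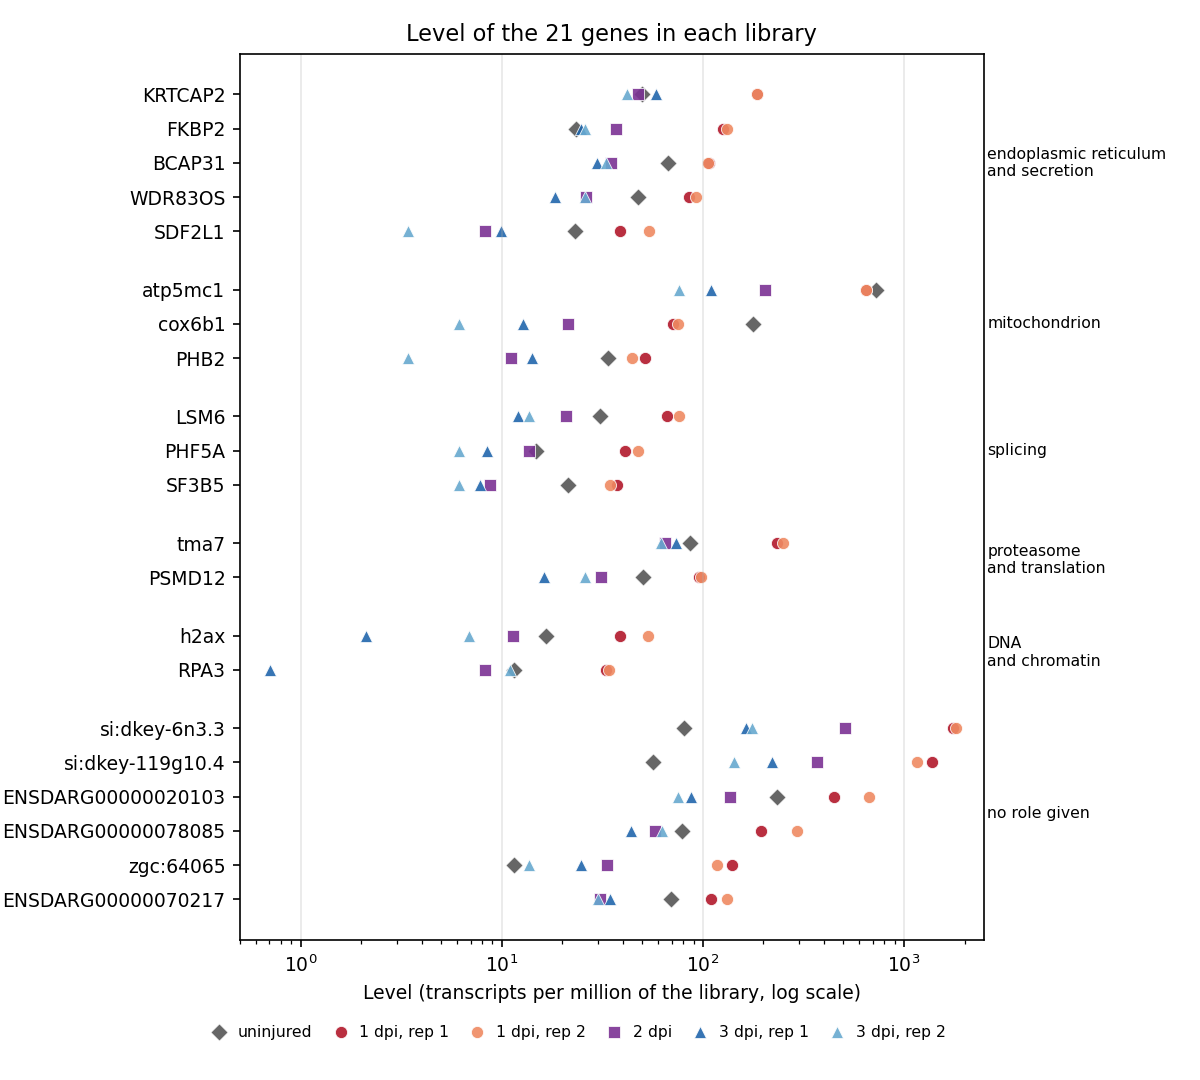
Level of each of the 21 genes (rows, grouped by role) in CPM on a log axis, with 1 symbol per library. Circles of 1 dpi lie right of the squares and triangles of 2 and 3 dpi, which the choice of the genes fixes, and the grey diamonds of the uninjured library lie between them for 14 genes.

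Ratios of the lower 1 dpi level to the highest later level ran from 3.009 to 3.98 with a median of 3.18, against a median of 0.880 over the 3091 genes at 30 CPM. Just inside the threshold were RPA3 (3.009), PHF5A (3.010) and BCAP31 (3.034). Just outside it were the endoplasmic reticulum chaperone gene HSP90B1 (2.9999), the galactokinase gene galk1 (2.985) and the copper chaperone gene atox1 (2.973). Replicate 2 of 1 dpi was above replicate 1 for 15 of the 21. The highest later level was that of 2 dpi for 14 members, that of replicate 1 of 3 dpi for 5 and that of replicate 2 of 3 dpi for 2. Against 3 dpi alone the ratio had a median of 4.47 and reached 9.92, for si:dkey-6n3.3. Together the 21 genes made up 1910 CPM in the uninjured library, 5883 and 6131 CPM at 1 dpi, 1685 CPM at 2 dpi, and 974 and 849 CPM at 3 dpi.

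Each pathway contributed few members, and 7 of the 25 function lists examined held any. Of the 34 proteasome identifiers that reached 30 CPM in both libraries of 1 dpi, 33 were above every later library, 15 at least 2 times, and PSMD12 alone 3 times. Summed over that list the level was 2210 CPM in the uninjured library, 4206 and 4495 CPM at 1 dpi, 2167 CPM at 2 dpi, and 1239 and 1058 CPM at 3 dpi. The respiratory chain and TCA cycle list had 86 identifiers at that level, of which 74 were above every later library, 13 at least 2 times, and 2 (cox6b1 and atp5mc1) were members. For endoplasmic reticulum folding the counts were 24, 19 and 9, with SDF2L1 and FKBP2 as members, and for secretory entry and vesicle coats 37, 29 and 10, with KRTCAP2 as the member. All 9 DNA replication identifiers at 30 CPM were above every later library, 5 of them at least 2 times, and RPA3 was the member. Mitochondrial import and translation had 20 identifiers at that level, 15 of them above every later library and 2 at least 2 times, with PHB2 as the member. For histones and chromatin the counts were 19, 14 and 3, with h2ax as the member. Over all 3091 genes the background share above every later library was 39.7%, and the share at least 2 times above was 4.76% (147 genes). A list's median ratio was 1.90 for the proteasome, 2.09 for DNA replication, 1.81 for endoplasmic reticulum folding, 1.45 for the respiratory chain, 1.44 for secretory entry, 1.39 for histones and chromatin and 1.29 for mitochondrial import and translation, against 0.880 over all 3091. These 7 lists are the ones that held a member, and the values at 1, 2 and 3 dpi chose the members. The choice of genes thus favours high counts and ratios here, and its part in them was not tested. Median ratios of the lists without a member ran from 0.556 for sterol synthesis (1 identifier at 30 CPM) to 1.24 for ribosome biogenesis. No member was in the lists of lysosome, cytokine, chemokine, phagocytosis, actin, glycolysis or interferon genes. Of 49 lysosome identifiers at 30 CPM, 31 were above every later library and 0 reached 2 times.

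The uninjured level was compared with that of 1 dpi to describe which members were also higher than in whole uninjured larvae of 4 dpf. Injury, tissue and age cannot be told apart in this comparison. Compared with the uninjured library, 5 of the 21 members were higher at 1 dpi, where 2.46% of the 13899 genes tested were higher and 11.9% lower. The members had been picked for high values at 1 dpi, so this count is read beside that background and gives no independent support. Both libraries of 1 dpi were above the uninjured library for 19 of the 21, against 70.5% of the 3091 genes at 30 CPM. The median log2 difference was 1.23 over the members and -0.21 over all genes tested. By edgeR's quasi-likelihood test with Benjamini-Hochberg adjustment, si:dkey-119g10.4 was higher by 4.50 on the log2 scale (SE 0.84, adjusted p = 1.5e-05) and si:dkey-6n3.3 by 4.45 (SE 0.85, adjusted p = 2.47e-05). The gene zgc:64065 was higher by 3.48 (SE 0.74, edgeR adjusted p = 0.000174), FKBP2 by 2.45 (SE 0.68, edgeR adjusted p = 0.00597) and KRTCAP2 by 1.90 (SE 0.65, edgeR adjusted p = 0.0333). The 2 libraries of 1 dpi lay above the uninjured library for each of these. The fit gave no member as lower (0 by edgeR, 0 by DESeq2, 1 at an unadjusted p under 0.05), and the other 16 did not pass in either direction. Of those 16, ENSDARG00000078085 came nearest, with a log2 difference of 1.61 (SE 0.64, edgeR adjusted p = 0.0771), followed by tma7 with 1.47 (SE 0.63, edgeR adjusted p = 0.111). For cox6b1 the difference was -1.29 (SE 0.59, edgeR adjusted p = 0.140) and for atp5mc1 -0.17 (SE 0.63, edgeR adjusted p = 0.930).

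With wells thinned to 1000 transcripts the calls of zgc:64065 (1.497, edgeR adjusted p = 0.295), FKBP2 (1.86, 0.177) and KRTCAP2 (1.46, 0.242) were lost, and KRTCAP2 was also lost without the filter on low counts (edgeR adjusted p = 0.0580). Both si:dkey genes kept their calls in all 17 alternatives. The call of FKBP2 was lost without either library of 1 dpi (edgeR adjusted p = 0.147 without replicate 1 and 0.103 without replicate 2), as was that of KRTCAP2 (0.342 and 0.237), leaving 3 called members each time, with the lone library of 1 dpi assumed to vary like those of 3 dpi. Without replicate 1 or replicate 2 of 3 dpi, the median log2 difference was 1.24 and 1.41 over the members. Over all genes tested it was -0.22 and 0.0025, and for cox6b1 the difference was -1.28 and -1.11. Those fits took their spread from the libraries of 1 dpi alone. Their biological coefficient of variation was 29.3% and 29.5%, against 45.4% with all libraries.

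The uninjured level was above both 1 dpi levels for 2 members, between them and the later levels for 14, within the later levels for 1, KRTCAP2, and below every injured library for 4, FKBP2, zgc:64065 and the si:dkey genes. Much of the uninjured level of some members rested on few wells. A single well held 86.1% of the uninjured transcripts of cox6b1 and 53.5% of those of atp5mc1, and over the members the median share of the top well was 6.67% and 4.30% at 1 dpi, against 26.6% in the uninjured library. The 18 largest uninjured wells together held 94.5% of the transcripts of cox6b1, 87.6% of those of atp5mc1, and 6.07% and 8.11% of those of si:dkey-6n3.3 and si:dkey-119g10.4. Without wells of over 50000 transcripts the uninjured level was 32.4 CPM for cox6b1 and 301 CPM for atp5mc1, below both libraries of 1 dpi. The same step moved si:dkey-6n3.3 to 254 CPM, si:dkey-119g10.4 to 173 CPM, zgc:64065 to 32.8 CPM and FKBP2 to 30.4 CPM in the uninjured library. Their distance to 1 dpi became smaller, and none of them then lay below every injured library. The uninjured levels of si:dkey-6n3.3, zgc:64065 and FKBP2 were above both libraries of 3 dpi, and that of si:dkey-119g10.4 lay between them. Without the large wells 20 of the 21 members had an uninjured level below both libraries of 1 dpi, and the exception was SDF2L1, at 42.9 CPM. In that fit si:dkey-6n3.3, si:dkey-119g10.4 and FKBP2 remained called, zgc:64065 had a log2 difference of 2.12 (edgeR adjusted p = 0.0594) and KRTCAP2 one of 2.11 (edgeR adjusted p = 0.0527), while cox6b1 and atp5mc1 turned to 1.32 and 1.25 without a call (edgeR adjusted p = 0.480 and 0.472).

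**Figure D2:**
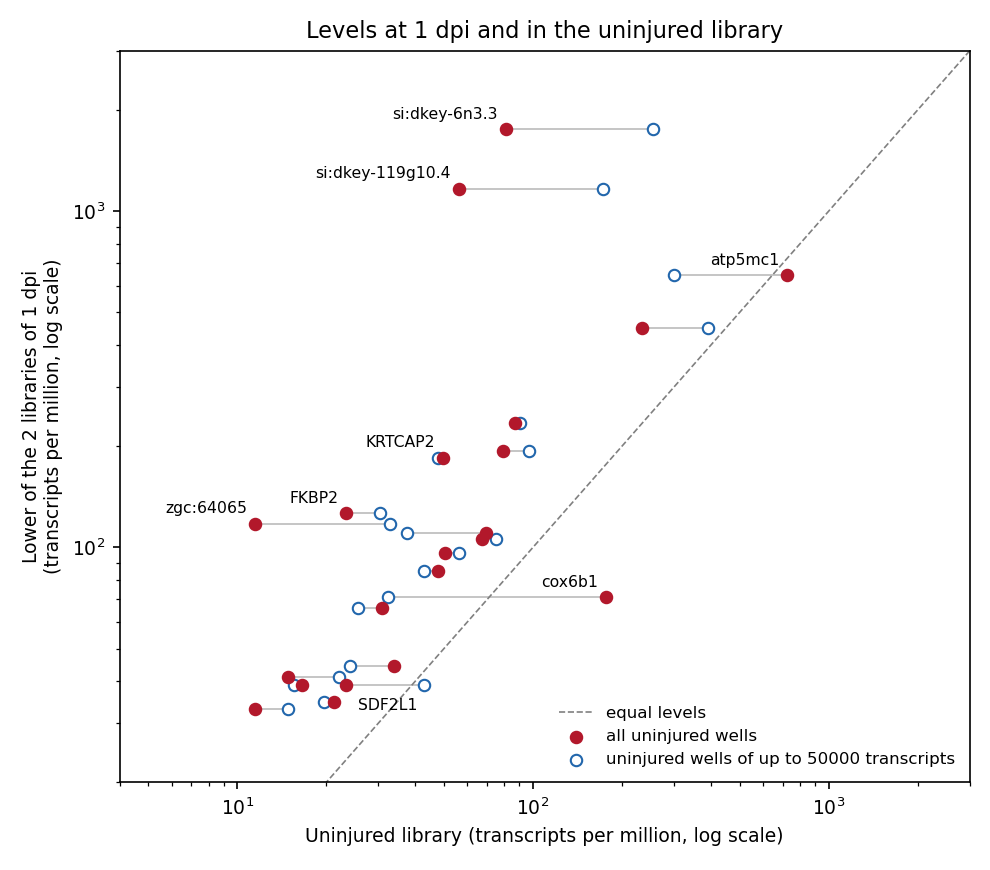
Lower 1 dpi level (vertical) against the uninjured level (horizontal) of the 21 genes, in CPM on log axes, with filled points for all uninjured wells and open points for uninjured wells of up to 50000 transcripts, a line joining the points of a gene. The filled points of cox6b1 and atp5mc1 lie right of the line of equal levels and their open points left of it, and SDF2L1 is the 1 gene whose open point lies right of it.

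In the fit against the uninjured library, 0 of the 36 proteasome genes tested were called in either direction by edgeR or DESeq2 (6 higher and 0 lower at an unadjusted p under 0.05), with a median log2 difference of 0.94. Of the 91 respiratory chain and TCA cycle genes, 0 were higher and 4 lower by edgeR (0 and 5 unadjusted, 0 and 2 by DESeq2), with a median of -0.33. Endoplasmic reticulum folding had 1 gene higher, the member FKBP2, and 1 lower among 36, and secretory entry 1 higher, the member KRTCAP2, and 1 lower among 48. DNA replication had 0 higher and 0 lower among 35 (1 and 0 unadjusted, 0 and 0 by DESeq2). Histones and chromatin had 0 higher and 2 lower among 30, and mitochondrial import and translation 0 higher and 3 lower among 44. The lysosome list, which held no member, had 21 genes higher and 3 lower among 63, with a median of 1.72.

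To describe the levels within the macrophages of the sort, wells were gated on their own marker transcripts. A macrophage-gated well had at least 3 transcripts of 11 macrophage identifiers, of genes mpeg1, mfap4, marco and csf1rb, and over 2 times those of 5 granulocyte identifiers, and a granulocyte-gated well the reverse. Macrophage-gated wells numbered 235 in the uninjured library, 216 and 162 in the libraries of 1 dpi, 243 in that of 2 dpi, and 112 and 133 in those of 3 dpi. Granulocyte-gated wells numbered 6 in the uninjured library, 29 and 23 in the libraries of 1 dpi, 70 in that of 2 dpi, and 64 and 89 in those of 3 dpi. Within macrophage-gated wells alone the lower 1 dpi level stayed above the highest later one for all 21 members, with ratios of 2.58 to 4.14, and 17 still reached 3 times. The choice of genes favours this, as macrophage-gated wells were 72.2% and 77.5% of the kept wells of 1 dpi. Many of the transcripts that chose the genes are thus counted again here. For atp5mc1 those wells gave 717 CPM in the uninjured library, 665 and 668 CPM at 1 dpi, 231 CPM at 2 dpi, and 130.0 and 72.6 CPM at 3 dpi.

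Within the injured libraries, where both gates share plate and time, 15 members passed the filter on low counts. By edgeR with the library as a block, 9 of the 15 were higher in macrophage-gated wells and 0 lower (0 lower by DESeq2 and 0 at an unadjusted p under 0.05), where 19.2% of the 5012 genes tested were higher and 13.8% lower. A member could pass the filter through its macrophage-gated sums alone, so the count over these 15 does not describe all 21. The choice of genes also favours the higher direction. Macrophage-gated wells made up more of each 1 dpi library (72.2% and 77.5%) than of either 3 dpi library (40.6% and 40.2%). The 2 dpi library lay between (66.8%). A gene richer in those wells could thus pass the rule more easily. The 9 of 15 is therefore only a description beside the 19.2%, and the part of the choice in it was not tested. Macrophage-gated wells were also the deeper ones, with a median of 3639 to 13022 transcripts per library against 2066 to 8572 in granulocyte-gated wells, and the part of depth in the differences was not tested. Among the 9 called members the largest difference was that of zgc:64065, which in macrophage-gated wells had 164 and 133 CPM at 1 dpi, 41.2 CPM at 2 dpi, and 35.6 and 20.4 CPM at 3 dpi. In granulocyte-gated wells zgc:64065 had 0 and 10.1 CPM at 1 dpi, 1.75 CPM at 2 dpi, and 17.97 and 3.04 CPM at 3 dpi, lower in all 5 libraries (log2 difference 3.07, SE 0.53, edgeR adjusted p = 3.29e-05). Among the called members ENSDARG00000020103 followed with 1.83 (SE 0.31, edgeR adjusted p = 9.61e-05), FKBP2 with 1.72 (SE 0.38, edgeR adjusted p = 0.000667), ENSDARG00000078085 with 1.58 (SE 0.32, edgeR adjusted p = 0.000258) and BCAP31 with 1.54 (SE 0.45, edgeR adjusted p = 0.00839). LSM6 (1.48), atp5mc1 (1.48), cox6b1 (1.47) and WDR83OS (1.29) were called as well. For atp5mc1 the levels in granulocyte-gated wells were 223 and 221 CPM at 1 dpi, 82.4 CPM at 2 dpi, and 32.3 and 42.6 CPM at 3 dpi, so that gate too was highest at 1 dpi. The calls of cox6b1, LSM6 and WDR83OS were lost in 4, 4 and 5 of the alternatives run, among them the fits without 2 dpi and without replicate 2 of 3 dpi (edgeR adjusted p = 0.238 and 0.110 for cox6b1, 0.298 and 0.0769 for LSM6, 0.0688 and 0.0978 for WDR83OS).

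In the same fit 44 of 85 respiratory chain and TCA cycle genes were higher in macrophage-gated wells, as were 21 of 33 proteasome genes, 12 of 23 of endoplasmic reticulum folding and 11 of 41 of secretory entry. The same lists had 0, 0, 1 and 0 genes lower by edgeR, by DESeq2 and at an unadjusted p under 0.05. Over all genes tested 19.2% were higher, and of these lists secretory entry lay nearest to that share. The other lists with a member had smaller shares higher. Mitochondrial import and translation had 3 higher and 0 lower of 24 (0 lower also unadjusted and by DESeq2), and histones and chromatin 2 higher and 3 lower of 21. DNA replication had 0 higher and 1 lower of 7 (1 higher unadjusted, 0 by DESeq2). Lists without a member went either way, with 45 higher and 2 lower of 52 for lysosome and 4 higher and 22 lower of 37 for actin and migration. Among members, KRTCAP2 (log2 difference 0.71, edgeR adjusted p = 0.0702), tma7 (0.38), ENSDARG00000070217 (0.41), PSMD12 (0.26), si:dkey-6n3.3 (2.58, edgeR adjusted p = 0.125) and si:dkey-119g10.4 (0.32) did not pass. The difference of si:dkey-6n3.3 was called by DESeq2 (3.01, adjusted p = 0.000622) and by edgeR without replicate 2 of 1 dpi (3.61, adjusted p = 2.25e-12), and in no other alternative. The gene si:dkey-119g10.4 was found in both gates, with 1425 and 1114 CPM at 1 dpi, 364 CPM at 2 dpi, and 280.0 and 171 CPM at 3 dpi in macrophage-gated wells. In granulocyte-gated wells it stood at 264 and 2318 CPM at 1 dpi, 249 CPM at 2 dpi, and 252 and 170.5 CPM at 3 dpi. A single granulocyte-gated well of replicate 2 of 1 dpi, with 8 transcripts of the macrophage gate and 21.05 of the granulocyte gate, held 83.5% of the si:dkey-119g10.4 transcripts of that gate and 99.2% of the si:dkey-6n3.3 transcripts. In macrophage-gated wells of that library si:dkey-119g10.4 had 1114 CPM and si:dkey-6n3.3 had 1825 CPM, against 411 and 21.6 CPM in its granulocyte-gated wells without that well. SF3B5, SDF2L1, h2ax, PHB2, PHF5A and RPA3 did not pass the filter. In macrophage-gated wells of 1 dpi PHB2 had 52.2 and 48.0 CPM and SDF2L1 had 44.3 and 57.9 CPM, against 0 CPM in replicate 1 and 10.1 CPM in replicate 2 for each gene in granulocyte-gated wells. The other 4 were less separated. PHF5A had 44.3 and 44.6 CPM in macrophage-gated wells of 1 dpi, against 10.1 and 70.4 CPM in granulocyte-gated wells, and h2ax had 42.6 and 46.0 CPM, against 10.1 CPM in each. SF3B5 had 37.4 and 32.6 CPM in macrophage-gated wells of 1 dpi, against 30.4 and 20.1 CPM in granulocyte-gated wells, and RPA3 had 32.2 and 31.97 CPM, against 30.4 and 10.1 CPM. In a fit without the filter, 12 of the 21 were called higher, with PHB2 (3.60) and SDF2L1 (3.55) above zgc:64065 (3.36). The choice of genes favours that direction here too. Of all 23052 genes in that fit 1472 were higher and 571 lower, with a median of 0.43. Per injured library PHB2 and SDF2L1 were found in at most 1 granulocyte-gated well each and zgc:64065 in at most 5. Their order is thus uncertain.

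**Figure D3:**
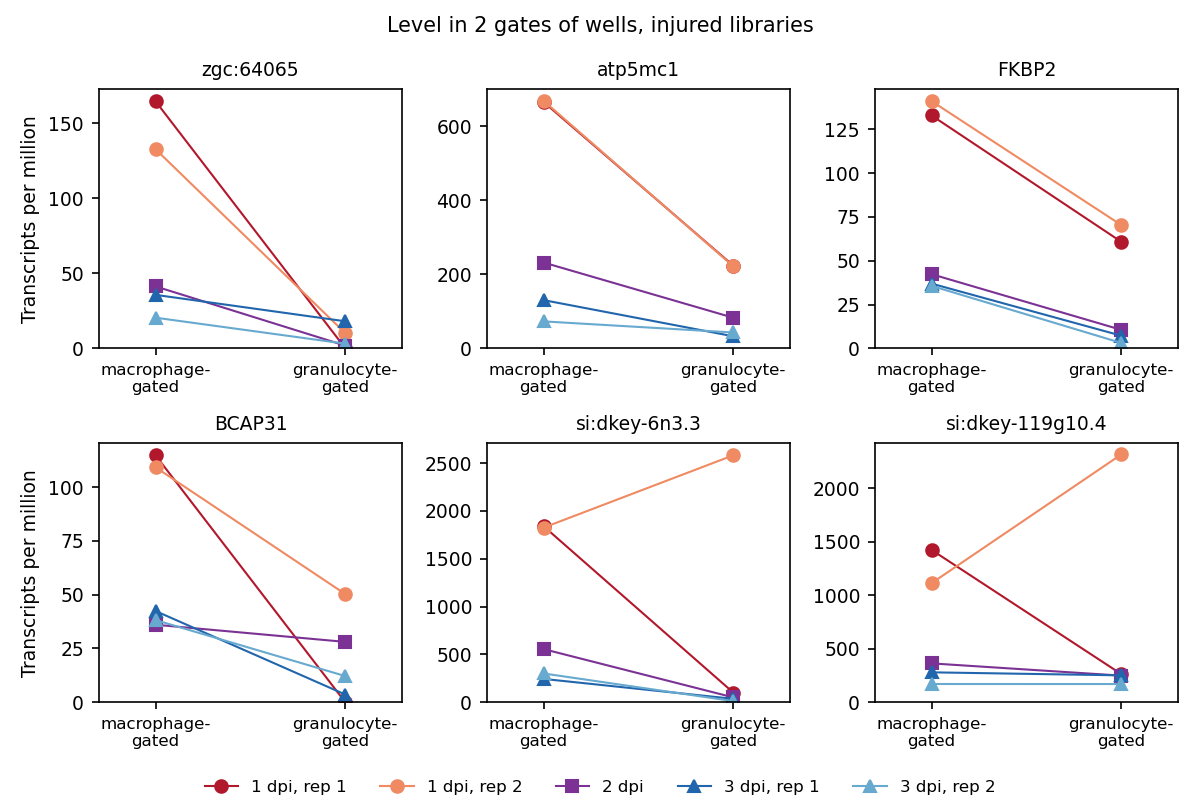
Level of 6 members in macrophage-gated (left) and granulocyte-gated (right) wells of the 5 injured libraries, in CPM on linear axes that start at 0, with a line per library. Lines of zgc:64065, atp5mc1, FKBP2 and BCAP31 slope down to the right in every library, and those of the si:dkey genes rise to 2582 and 2318 CPM in replicate 2 of 1 dpi alone.

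Since wells differed in depth, each well with at least 1000 transcripts was also thinned to 1000, which left 196 to 352 wells per library. The share of thinned wells with a transcript was higher in both libraries of 1 dpi than in any later library for all 21 members, a direction that the choice of genes favours. For atp5mc1 the share was 23.1% in the uninjured library (95% exact Clopper-Pearson interval 18.4% to 28.4%), 42.5% (36.5% to 48.7%) and 43.9% (36.8% to 51.1%) in the libraries of 1 dpi, 13.9% (10.5% to 17.98%) in that of 2 dpi, and 9.56% (6.22% to 13.9%) and 9.33% (6.29% to 13.2%) in those of 3 dpi. Before thinning its shares were 62.8% in the uninjured library, 62.2% and 82.3% in the libraries of 1 dpi, 60.2% in that of 2 dpi, and 21.7% and 18.7% in those of 3 dpi. On the thinned scale, where a large well counts no more than a small one, the uninjured share of atp5mc1 lay below both libraries of 1 dpi, unlike its level. For si:dkey-6n3.3 the thinned share was 13.9% (10.2% to 18.4%) in the uninjured library, 41.4% (35.4% to 47.5%) and 33.7% (27.1% to 40.8%) in the libraries of 1 dpi, 18.5% (14.6% to 22.9%) in that of 2 dpi, and 11.2% (7.54% to 15.7%) and 6.00% (3.59% to 9.32%) in those of 3 dpi. Before thinning the shares of si:dkey-6n3.3 were 26.1% in the uninjured library, 58.5% and 58.9% in the libraries of 1 dpi, 47.0% in that of 2 dpi, and 21.01% and 14.2% in those of 3 dpi. The median share over the members was 3.40% in the uninjured library, 7.52% and 8.67% in the libraries of 1 dpi, 2.27% in that of 2 dpi, and 1.59% and 2.67% in those of 3 dpi. Intervals cover counting error only.

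**Figure D4:**
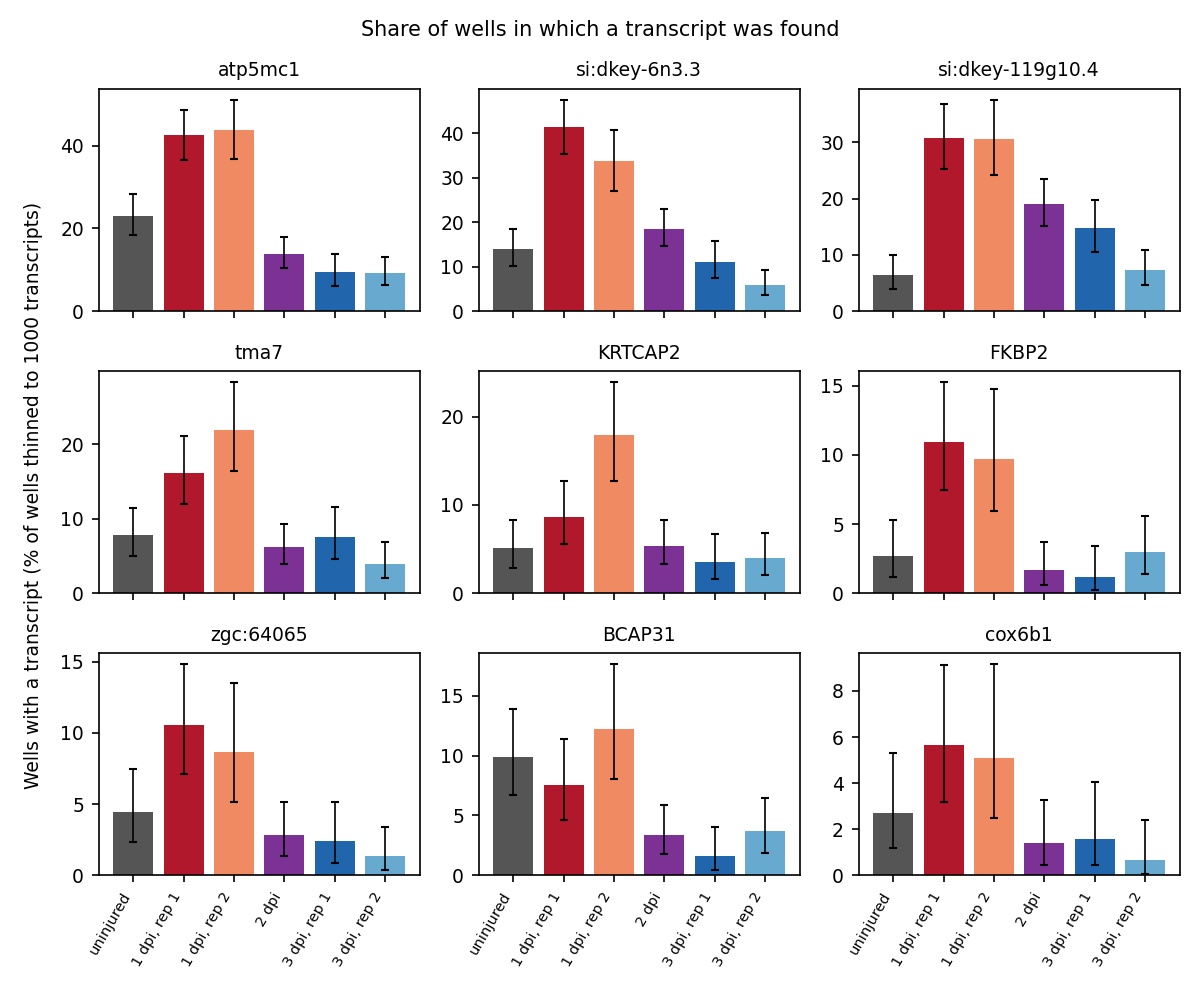
Share of thinned wells with a transcript of 9 members in each library, in percent on linear axes that start at 0, with bars for the share and whiskers for the 95% exact interval of counting error. The bars of 1 dpi are the highest of the injured libraries in every panel, and for BCAP31 those bars (7.52% and 12.2%) lie on either side of the uninjured one (9.86%).

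Members differed in how their transcripts were spread over wells. In thinned macrophage-gated wells the variance of si:dkey-6n3.3 was 8.83 and 12.08 times its mean at 1 dpi, and that of si:dkey-119g10.4 was 6.41 and 8.83 times its mean. For the other 19 members this ratio was between 0.887 and 2.69 at 1 dpi, where an equal chance in every well would give 1. At 1 dpi the median thinned well held 0 transcripts of si:dkey-6n3.3, while single wells held up to 23 and 27 of their 1000. The si:dkey genes shared part of their wells. Both were found in 3.46% of thinned macrophage-gated wells of the uninjured library (8 of 231), 26.7% (55 of 206) and 24.8% (39 of 157) at 1 dpi, 7.85% (19 of 242) at 2 dpi, and 4.63% (5 of 108) and 3.76% (5 of 133) at 3 dpi. The choice of genes favours more wells with both at 1 dpi than at 2 and 3 dpi. Whether the pair overlapped beyond what the share of each gene alone would give was not tested. At 1 dpi 34 and 21 wells had si:dkey-6n3.3 alone and 11 and 10 had si:dkey-119g10.4 alone. In each library of the other times, wells with 1 of the pair outnumbered wells with both. Across these wells Pearson's r between the genes was 0.35 in the uninjured library, 0.88 and 0.80 in the libraries of 1 dpi, 0.61 in that of 2 dpi, and 0.18 and 0.50 in those of 3 dpi, as a description over wells that share a plate. Whether reads of the pair could fall on either gene was not tested.

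**Figure D5:**
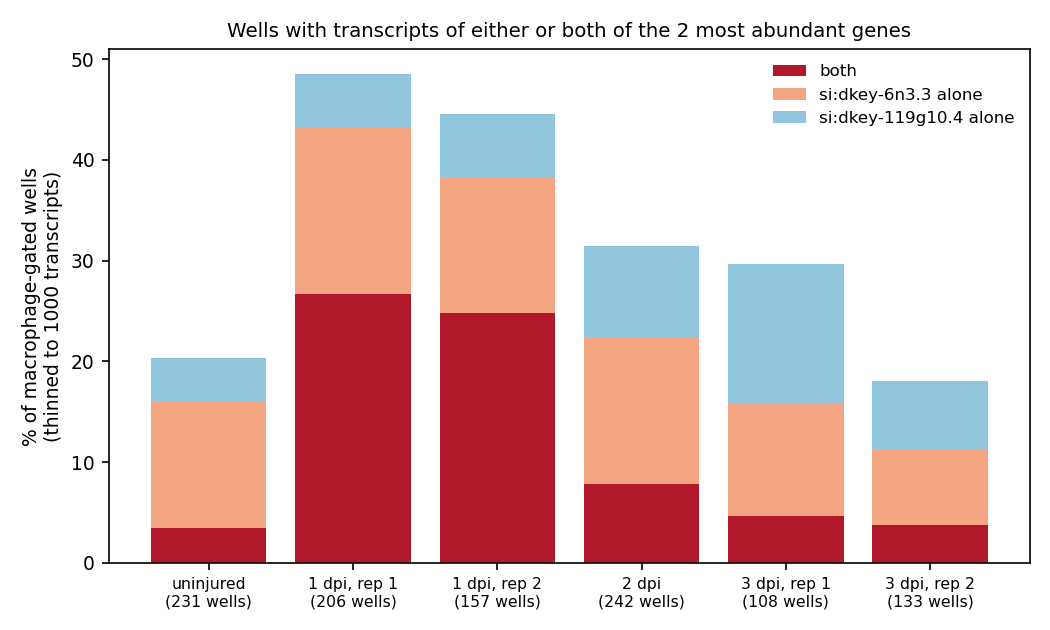
Share of macrophage-gated wells, thinned to 1000 transcripts, with transcripts of both si:dkey genes or of 1 of them, in percent on an axis that starts at 0, with a stacked bar per library and the number of wells below it. The share with both is 26.7% and 24.8% at 1 dpi and at most 7.85% in the other libraries.

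Wells at 1 dpi also held more members at once, a direction that the choice of genes favours against 2 and 3 dpi. The number of the 21 members found in a thinned macrophage-gated well had a median of 1 in the uninjured library, 3 in both libraries of 1 dpi, and 1 at 2 dpi and in both libraries of 3 dpi. The most members in 1 well were 7 in the uninjured library, 10 and 9 in the libraries of 1 dpi, 4 in that of 2 dpi and 3 in each of 3 dpi. Without the si:dkey genes the mean number of members per well was 1.21 in the uninjured library, 2.15 and 2.60 in the libraries of 1 dpi, 0.690 in that of 2 dpi, and 0.435 and 0.496 in those of 3 dpi. No member was found in 51 of 231 wells of the uninjured library, in 12 of 206 and 5 of 157 of the 1 dpi libraries, in 90 of 242 of the 2 dpi library, and in 50 of 108 and 65 of 133 of the 3 dpi libraries.

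Scaling to the added spike-in RNA, in place of the library total, kept the lower 1 dpi level above the highest later level for all 21 members but reduced the ratios to between 1.67 and 3.58, with a median of 2.02. The share of spike-in transcripts ranged from 1.11% to 14.6% between libraries. On that scale 2 genes in all passed the 3-fold threshold, 1 of them a member, SDF2L1.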

How the data were processed

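The deposited values are expected counts per gene and well of SORT-seq plates, and between 8.55% and 15.5% of the values above 0 in a library are not whole. Per the submitters' processing notes the authors used BWA and genome build Zv9, and no further step is stated. Wells with at least 500 gene transcripts were kept (1820 of 2304), spike-in and reporter rows left out, and counts summed per library. All libraries use the same 384 well names, so names do not show shared cells. Symbols came from the gene table for 19000 of 25129 identifiers (75.6%), and 1 identifier is not reported here. The members and lists were chosen with earlier results of these data known.

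Sums were rounded to whole numbers and tested with edgeR 4.0.16 in R 4.3.3 (TMM scaling, filterByExpr, robust quasi-likelihood test, Benjamini-Hochberg adjustment at 0.05). The uninjured comparison was fitted on all 6 libraries with time as the group. The gate comparison used sums per gate in the 5 injured libraries with the library as a block. DESeq2 1.42.0 was an alternative. The edgeR tests of both comparisons were also run on simulated data. Medians and shares came from Python 3.11.15. Genes were named by a rule on ratio, level, function list and uninjured position, with the 3 nearest genes outside the threshold and 2 members without a symbol, and any other member was named to account for all 21.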

Additional observations from a re-analysis of the deposited data

How the results depend on the processing

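The count of 21 genes became 147 at a ratio of 2, 0 at a ratio of 5, 48 with wells thinned to 1000 transcripts (11 of the 21 among them) and 2 with spike-in scaling (1 of the 21). TMM-scaled CPM also gave 21 genes, 16 of them members, macrophage-gated wells gave 20 with 17 members, and leaving out granulocyte-gated wells gave 17 with 15. Leaving out 1 library gave 26 to 140 genes, with 140 without 2 dpi, 86 without replicate 1 and 47 without replicate 2 of 1 dpi. All 21 were among them each time, which the rule fixes, since it can only become easier to pass with fewer libraries. Spike-in scaling, leaving out granulocyte-gated wells and leaving out each gene's top well were chosen after seeing the data.

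For 1 dpi minus uninjured, 2000 genes were called in both directions. The count was 1231 with library size alone, 1096 with DESeq2, 412 without wells over 50000 transcripts, 202 with thinned wells, 3803 with the uninjured and 1 dpi libraries alone, and 663 to 3918 leaving out 1 library. Members called higher numbered 3 without large wells, 2 with thinned wells, 10 with those 3 libraries alone and 3 to 12 leaving out 1 library. Members called lower numbered 1 with those 3 libraries, 1 with the replicate block and 0 to 1 leaving out 1 library. The member called lower with those 3 libraries and with the replicate block was cox6b1, with log2 differences of -1.30 and -1.54. With the replicate number as a block, 487 genes were higher and 1768 lower. The labels do not say that a number pairs libraries, and the correlation of the deviations of same-numbered libraries was 0.451 over 3626 genes for the 1 pair available.

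The log2 difference of cox6b1 reversed to 1.32 without large wells, 1.08 thinned and 1.42 without its top well. That of atp5mc1 reversed to 1.25, 0.89 and 0.83, and ranged from -0.23 to 0.0012 leaving out 1 library. That of PHB2 was -0.0086 with the replicate block. Of the other settings for single members, 316 kept direction and call, 23 gained a call and 10 lost one.

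Between gates, 1653 genes were called, against 606 of the 1182 tested with thinned wells, where 1 of the 3 members tested was higher, and 991 without the library block, where 3 of 15 were. Leaving out 1 library gave 6 to 10 members. The difference of si:dkey-119g10.4 ranged from -0.090 to 0.67 leaving out 1 library. For single members 142 settings kept direction and call, 5 gained a call and 16 lost one. The causes were not tested. With 1 uninjured library and 1 of 2 dpi, their spread was not measured, and levels under about 10 CPM rest on few transcripts.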
